A study of Mus musculus with 6 samples.

Results

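The genes of the Kv1 potassium channels were followed in neurons of the preBötzinger Complex (preBötC), the brainstem site that generates the breathing rhythm. The set held 9 of the 49568 gene names in the files. It comprised 6 genes for pore-forming alpha subunits, Kcna1, Kcna2, Kcna3, Kcna4, Kcna5 and Kcna6, and 3 for cytoplasmic beta subunits, Kcnab1, Kcnab2 and Kcnab3, taken by name and not by their values. RNA came from 6 mice of either sex at postnatal day 2, with 15 aspirated neurons from 1 mouse in each sample. All mice carried both the tamoxifen-dependent Cre driver Dbx1CreERT2 and the Cre-activated red reporter Rosa26tdTomato, and their mothers had received tamoxifen during pregnancy. The 3 Dbx1 samples held neurons with tdTomato, which marks the offspring of progenitors that expressed Dbx1, and the 3 non-Dbx1 samples held neuronal somata without it. The red label depends on tamoxifen reaching a progenitor while it expresses Dbx1, so a soma without it is defined by the absence of fluorescence, and each sample mixed the RNA of its 15 cells.

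Kv1 channels are tetramers of alpha subunits that open at voltages close to the threshold of the action potential. They sit largely on axons, at initial segments, beside nodes of Ranvier and at terminals, where they limit repetitive firing and transmitter release. Alpha subunits of different genes can assemble in a single channel, and beta subunits bind their cytoplasmic side, help them reach the axon and, for some combinations, add fast inactivation. In the respiratory network, potassium currents of this kind are among those that set how readily a neuron fires.

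The alpha subunit genes are paralogues that encode like sequences around the pore, which bears on whether a short read can be placed on the right gene. The stretch of 50 bases around the codons of the potassium selectivity filter was therefore read from the GENCODE vM21 transcripts (GRCm38, the same build as the mm10 of the alignments) and is given here 5′ to 3′ on the coding strand, with the 15 bases of the filter signature in capitals. The stretches lie at chr6:126642210-126642259 (minus strand) for Kcna1, chr3:107105207-107105256 (plus) for Kcna2, chr3:107037594-107037643 (plus) for Kcna3, chr2:107296478-107296527 (plus) for Kcna4, chr6:126533727-126533776 (minus) for Kcna5 and chr6:126738629-126738678 (minus) for Kcna6.
Kcna1: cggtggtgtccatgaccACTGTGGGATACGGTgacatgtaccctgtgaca
Kcna2: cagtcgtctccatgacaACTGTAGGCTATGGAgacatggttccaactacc
Kcna3: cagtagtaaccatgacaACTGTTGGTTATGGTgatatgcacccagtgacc
Kcna4: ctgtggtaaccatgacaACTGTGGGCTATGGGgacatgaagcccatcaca
Kcna5: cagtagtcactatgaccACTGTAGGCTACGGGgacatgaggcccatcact
Kcna6: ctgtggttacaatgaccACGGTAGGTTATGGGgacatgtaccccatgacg
Between pairs of genes these stretches differed at 9 to 16 of the 50 bases, with Kcna4 and Kcna5 the closest pair at 9. The signature itself differed at 2 to 5 of its 15 bases. Over whole transcripts, no 50-base window of Kcna1 or Kcna4 occurred in a transcript of another gene. Kcna3 shared 6 of its 1853 windows (0.324%) with Kcna10, and Kcna5 shared 79 of its 2813 windows (2.81%) with Kcna6, in coding sequence that covers 177 bases of the Kcna5 transcript. Kcna6 shared 38.8% of its windows, nearly all with Gm26673, an antisense gene that overlaps 2355 of its exonic bases. Reads were counted without strand, so reads from Kcna6 and from Gm26673 could not be told apart in that overlap. Gm26673 itself had 10 recovered reads, the smallest number that fits its RPKM, in non-Dbx1 sample 2 and none in the other samples. Each of the 6 alpha subunit genes carries its whole coding sequence in 1 exon, while the beta subunit genes spread theirs over 14 to 16 exons. Kcna5, Kcna1 and Kcna6 are neighbours within 208 kb of chromosome 6, and Kcna3 and Kcna2 within 78.8 kb of chromosome 3. The beta subunit genes lie apart, at chr3:65109384-65378223 (plus) for Kcnab1, chr4:152390742-152477871 (minus) for Kcnab2 and chr11:69326258-69333042 (plus) for Kcnab3.

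Expression was measured as RPKM, which divides the reads on a gene by its exon length and by the reads on all genes of the sample, as deposited by the authors. The reads on genes ranged from 6464675 to 9432958 per sample. They were recovered as the commonest total implied by the RPKM and the annotated exon lengths. Neuronal markers summed to between 993 and 1708 RPKM in every sample, with overlapping groups. Markers of other cells were also present. Erythroid markers summed to 90.3 to 507 RPKM for Dbx1 and 733 to 14058 for non-Dbx1, and oligodendrocyte lineage markers reached 434 RPKM in non-Dbx1 sample 1. The L2FC of a gene is its mean log2(RPKM + 1) in Dbx1 minus that in non-Dbx1, so that a positive value means more in Dbx1, and it was tested with limma over 17614 genes with Benjamini-Hochberg FDR. Exact permutation tests of 3 samples against 3 cannot give a two-sided p below 0.10. In pooled cells, fewer expressing neurons and less RNA per neuron cannot be told apart.

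No Kv1 gene passed FDR 0.1 between Dbx1 and non-Dbx1 neurons in the limma test. Over all tested genes 0% were called higher in Dbx1 and 0.00568% higher in non-Dbx1, which is 1 gene. The paper tested its counts with DESeq2 at the same threshold of 0.1 and called genes in both directions. Among them were Hif1a and Pbx3, higher in Dbx1, and Gata2 and Htr1a, higher in non-Dbx1. The analyses differed in the test, in its input values and in the genes tested, and DESeq2 was not run here. Which of these made the difference in calls was not tested. At an unadjusted p under 0.05, Kcna3 was higher in Dbx1 neurons, as were 2.73% of all tested genes, and Kcna5 was higher in non-Dbx1 neurons, as were 2.48%. The voom test on recovered reads likewise called none of them at FDR 0.1, and Kcna3 alone had an unadjusted p under 0.05 there. The groups did not overlap for Kcna3 and Kcnab1, with Dbx1 above, and for Kcna5, with non-Dbx1 above. Testing required an RPKM above 0 in at least 3 samples. Kcna5 had no reads in Dbx1, so it was tested only through non-Dbx1, and its lack of overlap was fixed in advance. Over all tested genes, 5.35% had Dbx1 wholly above non-Dbx1 and 5.24% the reverse. The median L2FC of the 9 genes was 0.29, against 0.01 over all tested genes, with 6 values above 0 and 3 below.

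**Figure D1:**
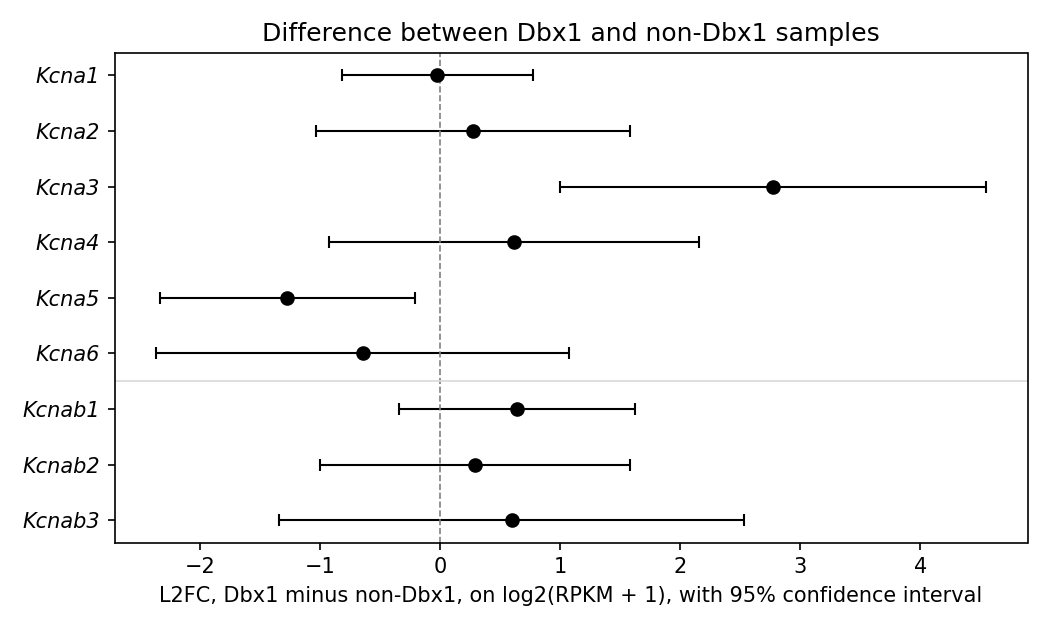
The L2FC of each gene (x axis, difference of group means of log2(RPKM + 1), Dbx1 minus non-Dbx1, 3 samples a group), where points are estimates, bars are limma's 95% confidence intervals and the grey line parts alpha from beta subunits. The intervals of Kcna3 (1.003 to 4.55) and Kcna5 (-2.33 to -0.21) lie to either side of 0, before any adjustment for the number of genes tested, and the other 7 cross it.

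Kcna3, which encodes the Kv1.3 subunit best known from lymphocytes and microglia and also present in brain, was the member with the largest difference. The Dbx1 samples had 8.07, 9.15 and 18.5 RPKM, and the non-Dbx1 samples 0, 4.61 and 0. All 3 Dbx1 samples lay above the highest non-Dbx1 sample, and 2 of the non-Dbx1 samples had no read on the gene. The recovered reads were 122, 131 and 245 in Dbx1 and 0, 75 and 0 in non-Dbx1, and a count of 0 allows an RPKM of up to 0.244 in non-Dbx1 sample 1 and 0.167 in sample 3. The group means were 11.9 ± 5.74 and 1.54 ± 2.66 RPKM (SD, n = 3), a ratio of 7.75 whose lower mean comes from 1 library, and the L2FC was 2.77 ± 0.775 (SE; limma p = 0.0066, FDR = 0.80; exact permutation p = 0.10). The size of the difference depended on how the zeros were treated, with an L2FC of 4.96 for a pseudocount of 0.1 and 5.97 under voom, neither of them a bound. The microglial marker sum was 0.202, 8.98 and 29.2 RPKM for Dbx1 and 20.5, 14.6 and 44.4 for non-Dbx1, with 6 of the 7 genes detected somewhere and Tmem119 at 0 throughout. Over Dbx1 samples 1 to 3, Kcna3 and the microglial sum rose in the same order. Among the non-Dbx1 samples, Kcna3 had reads only in the sample with the lowest microglial sum. The part of microglia in the Kcna3 values was not tested. Lymphocyte markers were not measured as a list.

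Kcna5, which encodes Kv1.5, a subunit of atrial and vascular muscle that also occurs in glia, had the opposite order. All 3 Dbx1 samples were listed at 0, and the non-Dbx1 samples at 0.162, 2.94 and 2.07 RPKM. The recovered reads were 0, 0 and 0 against 3, 72 and 56, so non-Dbx1 sample 1 sat at the detection floor of 3 reads and the difference was carried by the other two. Against a floor of 3 reads per library (a mean of 0.141 RPKM over the Dbx1 samples), the non-Dbx1 mean of 1.73 ± 1.42 RPKM (SD, n = 3) was 12.3-fold higher. The lowest non-Dbx1 sample was 1.15-fold above the same floor. The floor thus allows for the Dbx1 zeros but not for the spread among the non-Dbx1 samples. The L2FC was -1.27 ± 0.464 (SE; limma p = 0.024, FDR = 0.91; exact permutation p = 0.10), and it was -3.59 with a pseudocount of 0.1, since against zeros its size follows the value added before the log. Leaving out Dbx1 sample 1, 2 or 3 raised the limma p to 0.0590, 0.0587 and 0.0589. Without any single non-Dbx1 sample the gene no longer had reads in 3 samples and was not tested. Kcna5 thus passed the filter only through the group where it was high, and its p is not support for a difference. The summed markers of vessel cells were ordered the same way, but the single markers were not all so. The 6 endothelial and mural markers came to 1.21, 0.657 and 2.07 RPKM for Dbx1 and to 4.81, 65.5 and 3.17 for non-Dbx1. These sums did not overlap, and no gene of that list had p under 0.05. Cldn5 alone gave 63.7 RPKM of the sum in non-Dbx1 sample 2. Acta2 had the reverse order without overlap, at 0.565, 0.149 and 2.02 RPKM for Dbx1 and 0.0869, 0.0656 and 0.119 for non-Dbx1. The mean of Pecam1 was also higher in Dbx1, and those of Cldn5, Flt1, Pdgfrb and Rgs5 were higher in non-Dbx1. The sums of erythroid markers did not overlap either, at 90.3, 218 and 507 against 14058, 1198 and 733 RPKM. The sample with the most erythroid RNA, non-Dbx1 sample 1, had the least Kcna5 of its group. The part of these cells in the Kcna5 difference was not tested.

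The upstream sequences of these 2 genes are shown because they were the members with p under 0.05. They run from 250 bases before to 50 bases after the RefSeq start (GRCm38.p6), 5′ to 3′ on the strand of the gene, at chr3:107035912-107036211 (plus) for Kcna3 and chr6:126535506-126535805 (minus) for Kcna5, with matches to the searched motifs in capitals.
Kcna3: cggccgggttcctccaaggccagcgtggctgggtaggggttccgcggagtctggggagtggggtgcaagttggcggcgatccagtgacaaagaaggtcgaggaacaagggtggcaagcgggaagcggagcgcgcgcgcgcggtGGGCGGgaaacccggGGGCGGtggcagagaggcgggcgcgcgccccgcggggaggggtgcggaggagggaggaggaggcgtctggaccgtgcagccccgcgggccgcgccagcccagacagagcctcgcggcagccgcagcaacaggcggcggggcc
Kcna5: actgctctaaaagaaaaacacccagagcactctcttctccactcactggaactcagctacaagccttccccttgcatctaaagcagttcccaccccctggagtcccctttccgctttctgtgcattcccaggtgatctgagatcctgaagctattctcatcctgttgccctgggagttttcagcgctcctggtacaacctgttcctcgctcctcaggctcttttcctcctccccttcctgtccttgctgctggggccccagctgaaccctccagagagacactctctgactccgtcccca
The letters searched on both strands were the GC box GGGCGG, the TATA box TATAAA, the cAMP response element TGACGTCA and the E-box CACGTG. Kcna3 held the GC box 2 times, 107 and 92 bases before its start, neither overlapping another match, and Kcna5 held none. The GC box letters occurred in 35.7% of the 32851 RefSeq promoters of the same length. Neither gene held TATAAA (13.6% of promoters), TGACGTCA (1.79%) or CACGTG (7.15%). The GC content was 75% for Kcna3 and 55% for Kcna5, against a median of 52.7%. A match describes these letters only, and the table gave a promoter for 7 of the 9 genes.

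Kcna4 encodes Kv1.4, the Kv1 subunit that inactivates rapidly by itself and so gives a transient current. The Dbx1 samples had 6.31, 14.1 and 6.49 RPKM, and the non-Dbx1 samples 15.7, 3.71 and 1.93. The highest and the lowest value both came from the non-Dbx1 group, and the groups overlapped. The means were 8.97 ± 4.45 and 7.12 ± 7.49 RPKM (SD, n = 3), with an L2FC of 0.61 ± 0.673 (SE; limma p = 0.387, FDR = 0.96; exact permutation p = 0.50). It ran from 0.081 without non-Dbx1 sample 3 to 1.34 without non-Dbx1 sample 1. The 95% interval with all samples, -0.93 to 2.15, leaves room for a difference in either direction.

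Kcna6 encodes Kv1.6, a neuronal subunit that joins the others in mixed channels. It was measured at 1.79, 0.780 and 3.88 RPKM in Dbx1 neurons and at 0.836, 4.36 and 8.39 RPKM in non-Dbx1 neurons. The groups overlapped, although the 2 highest values were both non-Dbx1. The L2FC was -0.64 ± 0.752 (SE; limma p = 0.415, FDR = 0.96; exact permutation p = 0.40), and it ran from -0.12 without non-Dbx1 sample 3 to -1.29 without non-Dbx1 sample 1. The same 2 samples had the most RNA of cholinergic and motor neuron markers. That list summed to 1.34, 2.18 and 8.58 RPKM in Dbx1 and to 3.14, 20.4 and 62.3 in non-Dbx1. Its genes did not all follow this order. Isl1, a motor neuron transcription factor, was at 13.3 RPKM in non-Dbx1 sample 3 and at 0 in the other 5. Mnx1 was above 0 only in non-Dbx1 sample 1, at 0.145 RPKM. Slc5a7 was at 8.52 RPKM in Dbx1 sample 3, against 10.9 and 7.91 in non-Dbx1 samples 2 and 3. The part of such neurons in the Kcna6 values was not tested.

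Kcna1 and Kcna2 encode Kv1.1 and Kv1.2, the subunits of the axonal channels beside the nodes of myelinated fibres. Kcna2 had reads in every sample, at 1.39, 3.66 and 3.62 RPKM in Dbx1 and 2.33, 1.34 and 2.70 in non-Dbx1, with an L2FC of 0.28 ± 0.571 (SE; limma p = 0.640, FDR = 0.98; exact permutation p = 0.50). Its lowest values in the 2 groups were nearly equal, and the groups overlapped. Kcna1 was the lowest of the 9 genes, at 0, 0.0168 and 1.11 RPKM in Dbx1 and 0.273, 0.0442 and 0.682 in non-Dbx1. These values rested on 0, 1 and 61 reads against 14, 3 and 51, so Dbx1 sample 2 lay below the 3-read floor and sample 1 had none. Sample 3 was the highest of its group on both sides, and the L2FC of -0.02 ± 0.347 (SE; limma p = 0.953, FDR = 0.997; exact permutation p = 0.80) had no stable sign. It turned to 0.16 without Dbx1 sample 1, to 0.15 without Dbx1 sample 2 and to 0.16 without non-Dbx1 sample 3. The 2 remaining alpha subunit genes of the family were near absent. Kcna7 had 1 read, in non-Dbx1 sample 1, and Kcna10 had none in any sample.

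**Figure D2:**
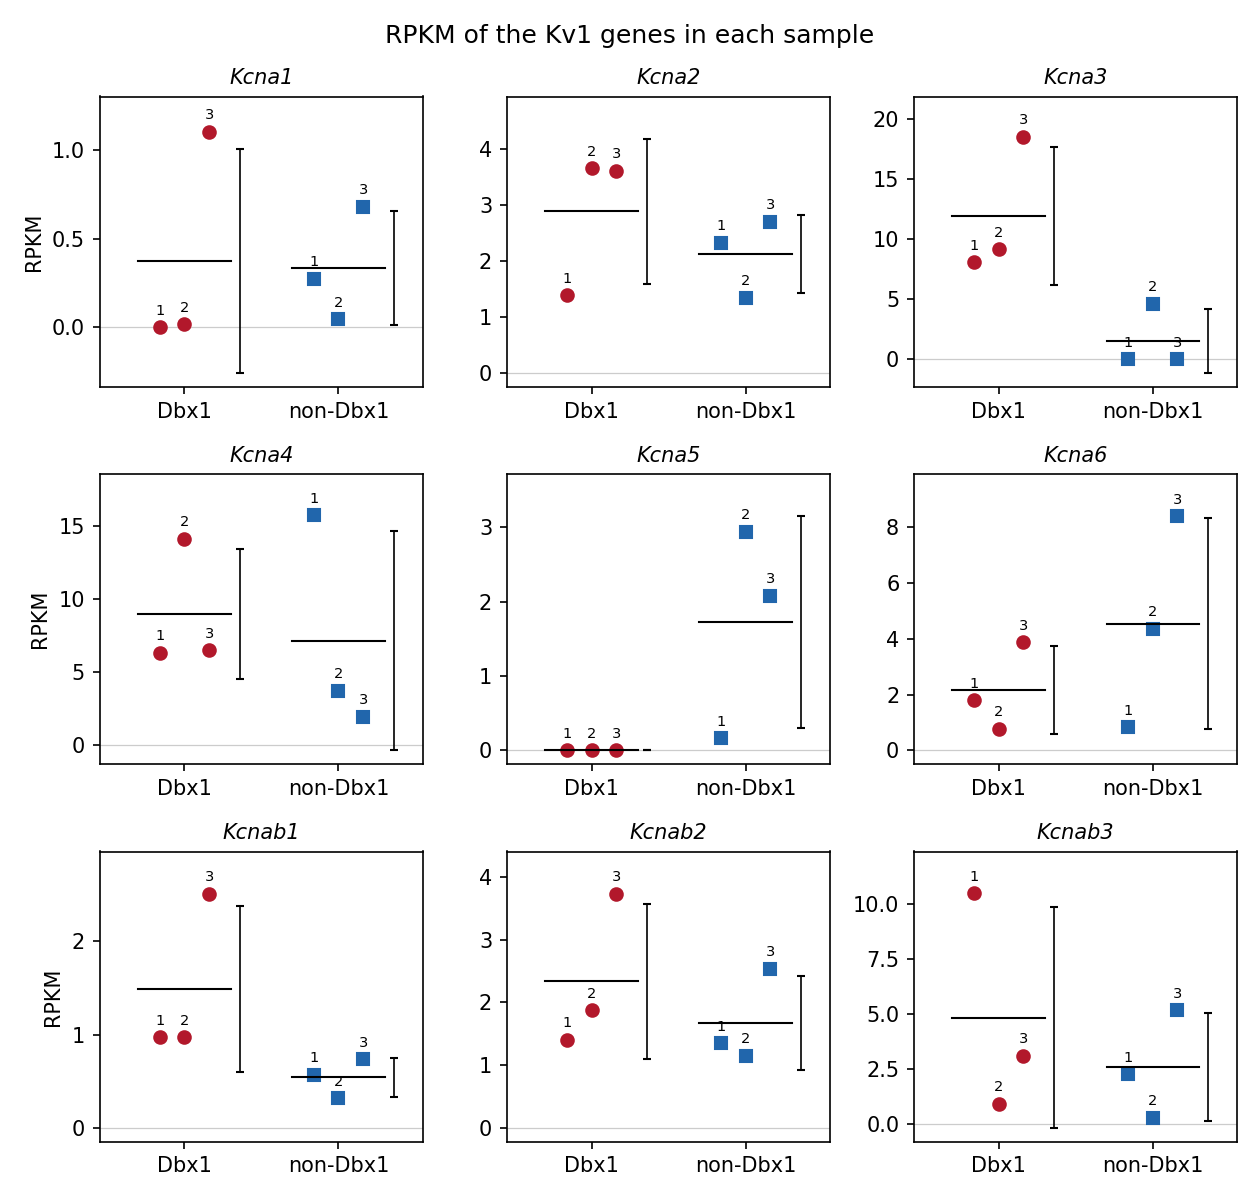
RPKM (y axis, linear, one scale per panel) of each Kv1 gene in the 3 Dbx1 samples (red circles) and the 3 non-Dbx1 samples (blue squares), numbered by sample, with the group mean as a horizontal line and 1 SD to either side as a bar that may run below 0. Kcna3 and Kcnab1 have all Dbx1 points above all non-Dbx1 points, Kcna5 has the reverse, and the groups overlap in the other 6 panels.

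All 3 beta subunit genes had reads in all 6 samples. Kcnab1 encodes Kvβ1, which can confer fast inactivation on alpha subunits that lack it. Dbx1 neurons had 0.972, 0.975 and 2.51 RPKM, and non-Dbx1 neurons 0.568, 0.319 and 0.737. The lowest Dbx1 value exceeded the highest non-Dbx1 value, but the gap between 0.737 and 0.972 was small beside the spread within Dbx1. The means were 1.49 ± 0.889 and 0.541 ± 0.210 RPKM (SD, n = 3), with an L2FC of 0.64 ± 0.430 (SE; limma p = 0.171, FDR = 0.94; exact permutation p = 0.10). With 1 added before the log, this L2FC understates the ratio of so low a gene, and the log2 of the ratio of the group means was 1.46. An antisense gene, A330015K06Rik, shares 201 exonic bases with Kcnab1 and was itself assigned 18, 6 and 57 reads in Dbx1 and none in non-Dbx1. Those bases are 2.34% of the exonic bases of Kcnab1, and the part of antisense reads in its value was not tested.

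Kcnab2 encodes Kvβ2, the subunit linked to the delivery of Kv1 channels to axons. It was measured at 1.41, 1.87 and 3.74 RPKM in Dbx1 and 1.35, 1.15 and 2.54 in non-Dbx1, and the groups overlapped (L2FC = 0.29 ± 0.563 SE; limma p = 0.618, FDR = 0.97; exact permutation p = 0.50). Without Dbx1 sample 3 the L2FC was 0.01. Kcnab3 encodes Kvβ3. It was the most uneven beta gene, at 10.5, 0.948 and 3.11 RPKM in Dbx1 and 2.27, 0.310 and 5.19 in non-Dbx1. Sample 2 was the lowest in both groups, and the recovered reads ran from 13 to 409. The L2FC of 0.60 ± 0.846 (SE; limma p = 0.499, FDR = 0.96; exact permutation p = 0.60) turned to -0.076 without Dbx1 sample 1. Kcnab3os, an antisense gene overlapping 147 of its exonic bases, had 0 to 6 reads.

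The alpha subunit gene with the most RNA was not the same in every sample. Summed RPKM of the 6 alpha genes was 17.6, 27.7 and 33.6 for Dbx1 and 19.3, 17.01 and 15.8 for non-Dbx1, so the groups overlapped. The most abundant alpha gene by RPKM was Kcna3, Kcna4 and Kcna3 in Dbx1 samples 1 to 3, and Kcna4, Kcna3 and Kcna6 in non-Dbx1 samples 1 to 3. Kcna3 made up 45.9%, 33.0% and 55.1% of the alpha RPKM in Dbx1 and 0%, 27.1% and 0% in non-Dbx1. In the non-Dbx1 samples without Kcna3 reads, other genes held the sum, with Kcna4 at 81.3% in sample 1 and Kcna6 at 53.2% in sample 3. These shares used the deposited lengths. With each exonic base counted once in the gene length, Kcna6 led in non-Dbx1 sample 2 with 48.2%, where Kcna3 held 17.6%, and Kcna6 held 72.3% in non-Dbx1 sample 3, while the leading gene of the other samples did not change. At the deposited lengths, the leading pair of alpha genes accounted for 74.4% to 83.9% in Dbx1 and 52.7% to 93.4% in non-Dbx1. Beta subunit RPKM was 0.733, 0.137 and 0.279 of the alpha sum in Dbx1 and 0.217, 0.105 and 0.537 in non-Dbx1, with no separation of the groups. Kcnab3 led the beta genes in Dbx1 sample 1 and non-Dbx1 samples 1 and 3, and Kcnab2 in the other 3.

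**Figure D3:**
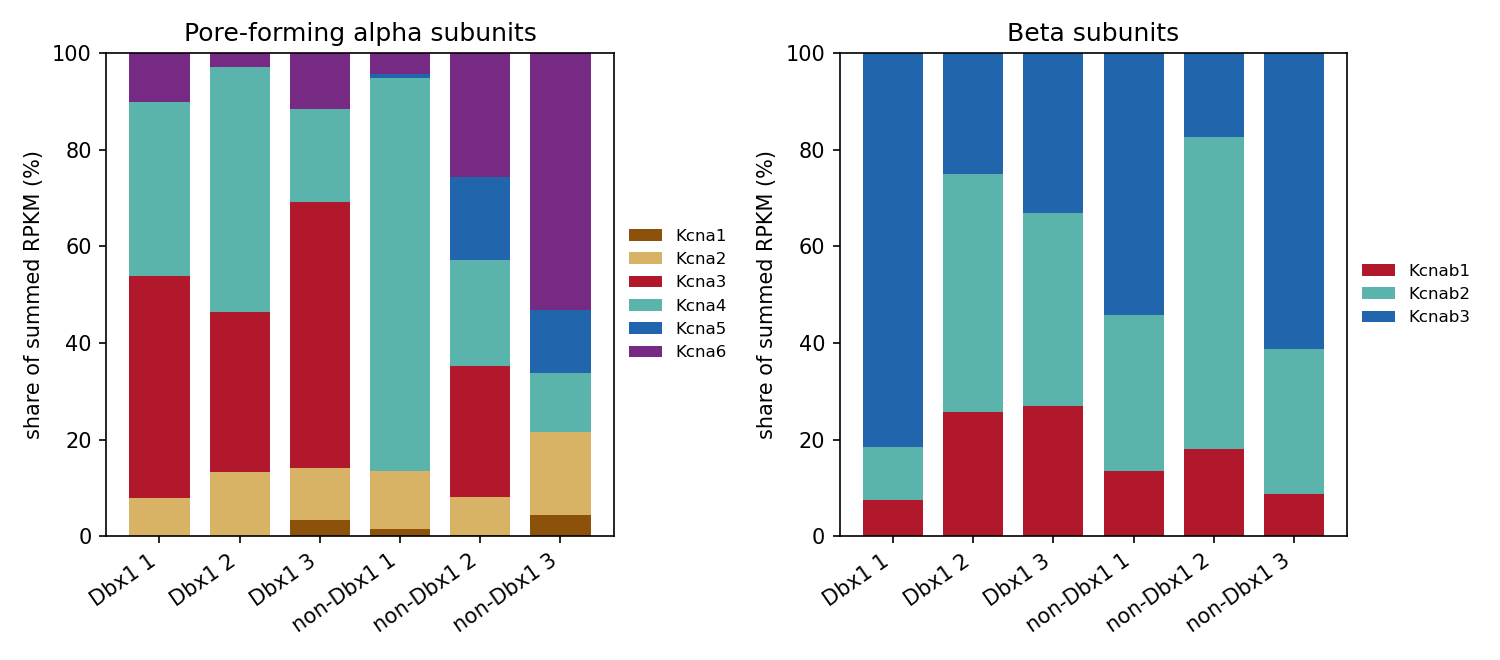
Share of each gene (y axis, percent of the summed RPKM at the deposited lengths) among the 6 alpha subunits (left) and the 3 beta subunits (right) in each of the 6 samples, as stacked bars. Kcna3 is a large band in every Dbx1 sample and is missing in non-Dbx1 samples 1 and 3, where Kcna4 (81.3%) and Kcna6 (53.2%) take the largest bands.

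Levels of different genes can be set side by side per length, and here the length mattered. By the mean of log2(RPKM + 1) over the 6 samples the order of levels was Kcna4, Kcna3, Kcnab3, Kcna6, Kcna2, Kcnab2, Kcnab1, Kcna5 and Kcna1. Mean RPKM ran from 8.04 for Kcna4 to 0.354 for Kcna1. The second place of Kcna3 held in neither group alone, since it was the first in Dbx1 (mean 11.9 RPKM, against 8.97 for Kcna4) and the seventh in non-Dbx1 (1.54 RPKM). Neighbours in this order were compared by exact sign-change tests of the paired differences over the 6 samples, after the order had been seen. Kcnab2 was above Kcnab1 in 6 of 6 samples by 0.60 ± 0.254 on the log2 scale (SD; exact p = 0.0313, the smallest that 6 samples allow; adjusted over 8 pairs, 0.25). For the other 7 pairs the exact p lay between 0.125 and 0.969. The order of these neighbours was not settled, and with 6 samples such a test can miss a difference.

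The length implied by the deposited RPKM was compared with the annotation. For all 6 alpha genes it equalled the sum of all distinct annotated exons, in which bases shared by alternative exons are counted repeatedly. For Kcna6 it was 17207 bases, although its exons cover 5945 bases of the genome, a ratio of 2.89. For Kcna2 the lengths were 17726 and 11906 bases and for Kcna1 7926 and 4780, whereas for Kcna3 (1902) and Kcna5 (2862), each with 1 annotated exon, the definitions are equal. For the beta genes the implied length was longer than the distinct-exon sum of this annotation, by 13.3% for Kcnab1, 6.46% for Kcnab2 and 59.5% for Kcnab3, and it was 12617 bases for Kcnab2 against 5578 covered. With each exonic base counted once, Kcna6 moved from the fourth place to the first, at a mean of 9.66 RPKM in place of 3.34, and the order became Kcna6, Kcna4, Kcnab3, Kcnab2, Kcna3, Kcna2, Kcnab1, Kcna5 and Kcna1. In that order Kcna2 was above Kcnab1 in 6 of 6 samples (exact p = 0.0313, adjusted 0.25), and no other neighbours reached that p. The overlap with Gm26673 spans 39.6% of the exonic bases of Kcna6. The paper's counting command gives no setting for reads that lie on exons of both genes, and how they were counted was not examined. If such reads were left out, the Kcna6 RPKM would be too low at either length, and neither length allows for it. The length of a gene is the same in every sample, so it does not alter ratios of RPKM between samples.

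**Figure D4:**
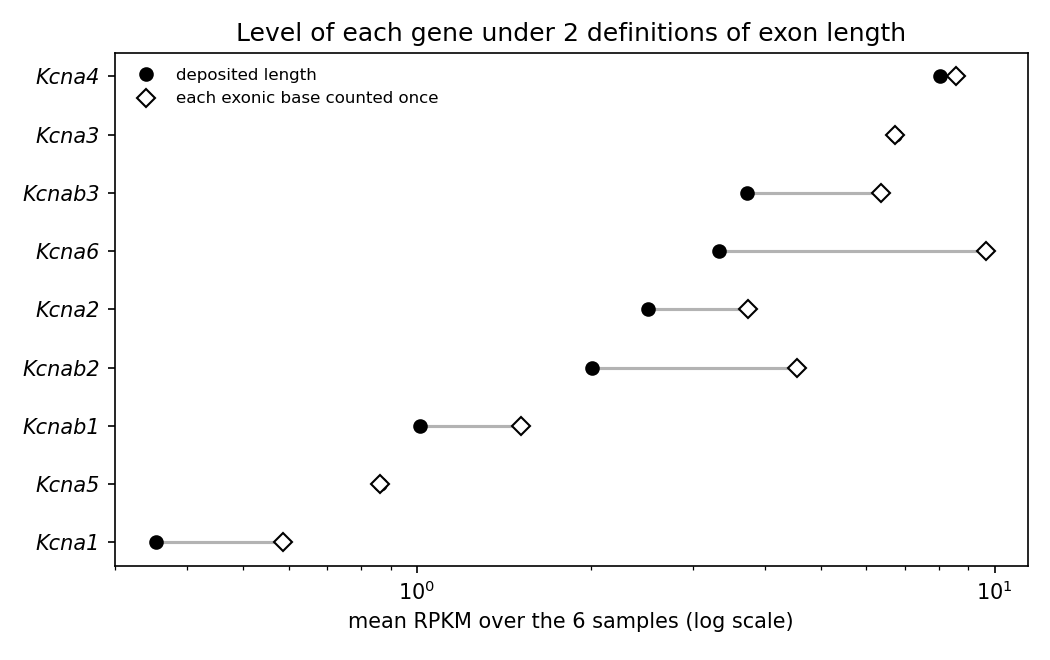
Mean RPKM of each gene over the 6 samples (x axis, log scale) with the deposited exon length (filled circles) and with each exonic base counted once (open diamonds), joined by a line. Kcna6 moves furthest, from 3.34 to 9.66 RPKM, and Kcna3 and Kcna5 do not move.

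Set beside the other voltage-gated families, Kv1 genes held shares of the alpha subunit RNA that overlapped between the groups. Kv1 made up 22.4%, 28.9% and 26.1% of the summed RPKM of Kv1, Kv2, Kv3 and Kv4 genes for Dbx1 and 25.7%, 19.0% and 22.4% for non-Dbx1, with overlapping groups and a mean of 24.1% ± 3.51 (SD, n = 6). Kv3, the fast delayed rectifiers, held 34.98% ± 8.70 and Kv4, the somatodendritic transient channels, 31.7% ± 9.15, while Kv2 held 9.27% ± 4.65. The highest gene of each was Kcnc4 at a mean of 18.4 RPKM, Kcnd2 at 18.2 and Kcnb2 at 4.43, of which Kcnc4 and Kcnd2 lay above the Kcna4 mean. Of the 9 genes of these 3 families, none passed FDR 0.1 in limma or voom, and 1, Kcnd2, had an unadjusted limma p under 0.05 (L2FC = 0.92 ± 0.374 SE, p = 0.038, FDR = 0.91; exact permutation p = 0.10), against the 2.73% of all tested genes in that direction. Groups did not overlap for Kcnd2, with Dbx1 above, as for 5.35% of all tested genes. They also did not overlap for Kcnd3, with non-Dbx1 above, as for 5.24% of all tested genes. Kcnd3 was named after its values were seen (L2FC = -1.40 ± 0.630 SE, limma p = 0.055, FDR = 0.91; exact permutation p = 0.10).

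**Figure D5:**
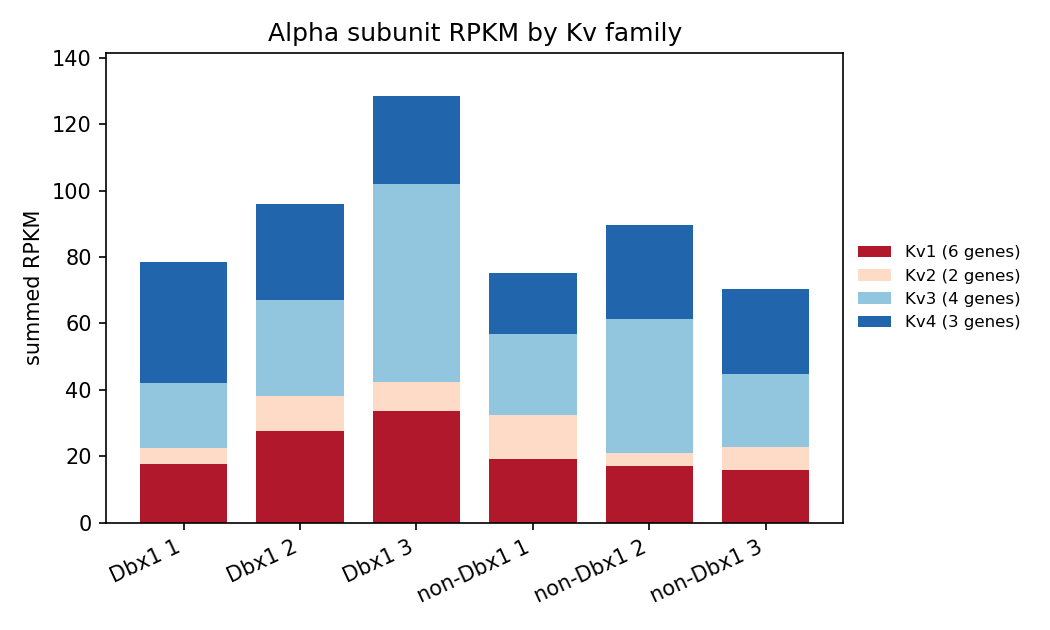
Summed RPKM of the alpha subunit genes of 4 voltage-gated potassium channel families (y axis) in each of the 6 samples, as stacked bars with Kv1 at the base. Kv1 sums lie between 15.8 and 33.6 RPKM, and the Kv1 share of each bar between 19.0% and 28.9%.

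Of 18 genes whose products anchor, cluster or modify Kv1 channels, 16 were tested. None passed FDR 0.1 in limma or in voom and none had an unadjusted limma p under 0.05, with 7 L2FC values above 0, 9 below and a median of -0.12. Among those with the highest mean were Epb41l3, a scaffold of the axon beside the node, at 33.2 RPKM, and Lgi3, a secreted protein of axonal Kv1 complexes, at 26.1. Both exceeded the mean of every Kv1 gene. Lgi4 had no reads, and Kcnrg, a suppressor of Kv1 assembly, was listed at 3.57 RPKM in Dbx1 sample 2 and at 0 elsewhere. Groups did not overlap for 2 of the 16, both with non-Dbx1 above, as for 5.24% of all tested genes, and these were Dlg3 and Zdhhc14, named after their values were seen. Dlg3, a synaptic scaffold, was measured at 4.08, 4.01 and 5.62 RPKM in Dbx1 and 6.12, 7.33 and 8.02 in non-Dbx1, and Zdhhc14, a palmitoyltransferase, at 14.3, 5.12 and 12.5 against 18.1, 24.7 and 14.4.

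The genes whose profile over the 6 samples was most like that of the alpha and beta genes with the highest mean RPKM at the deposited lengths were listed as a description. For Kcna4 they were Pth2r (Pearson r = 0.989), Rabepk (r = 0.987) and Rab11fip2 (r = 0.985) on log2(RPKM + 1), out of 13163 candidates with a mean of at least 1 RPKM, of which 99 had r above 0.9. For Kcnab3 they were Ola1 (r = 0.991), Gm5514 (r = 0.980) and Psmb10 (r = 0.977), with 73 above 0.9. With 6 points and this many candidates such values are reached by many genes.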

How the data were processed

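The authors made cDNA from 15 aspirated neurons per sample with SMART-Seq v4, prepared Nextera libraries, aligned single-end reads to mm10 with TopHat2, sorted them with SAMtools and counted them per gene name with HTSeq, ignoring strand. The deposited values are RPKM, which the authors computed from exon lengths of an Ensembl annotation whose release is not given in the sources used here. They were not scaled between samples.

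From the files, reads per gene were recovered as the smallest whole numbers that give back the RPKM (within 0.01 of a whole number). Such numbers were found for all 27067 detected genes, but the true reads may be higher, above all for genes with reads in 1 sample. Of 14015 annotated genes with at least 50 such reads in a sample, 8522 had an implied length within 10% of the distinct-exon sum. Floors of 3 reads cover counting error only, since amplified cDNA reads are not independent molecules. Groups came from the labels, and each sample is a separate mouse. The values log2(RPKM + 1) were fitted with limma 3.58.1 in R 4.3.3 (eBayes with trend, two-sided) for genes above 0 in at least 3 samples, with an FDR threshold of 0.1. The authors had tested their counts with DESeq2. Here RPKM was the main measure, and the reads recovered from it were tested with voom as an alternative (at least 10 reads in at least 3 samples). limma was tested on simulated data. Exact permutation and sign-change tests, sums and shares used scipy 1.17.1, pandas 2.3.3 and numpy 2.4.6 (Python 3.11.15), and figures were drawn in matplotlib 3.10.9. Positions, exons and transcripts came from GENCODE vM21 and promoters from RefSeq (GRCm38.p6).

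All 9 Kv1 genes are named. Of the 18 partner genes, those with p under 0.05 were to be named, otherwise the 3 with the highest mean and any without reads, and of the other Kv families the highest gene of each. Of the genes this rule names, 1 is not reported here. The members and lists were chosen with earlier results of these data known. Alternatives were a pseudocount of 0.1, no filter, a stricter filter (1 RPKM or more in 3 samples or more), median-of-ratios and quantile scaling, limma without trend, the replicate number as a block, voom, each sample left out, the ratio of means, the median or either group alone for the order, the merged exon length, and other sums for the Kv1 share. The merged length for the Kv1 share was chosen after seeing the data.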

Additional observations from a re-analysis of the deposited data

How the results depend on the processing

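No Kv1 gene and no partner gene passed FDR 0.1 in any fit run, including each left-out sample. The number of genes called over the whole table was 1, and it was 3 without the trend and 0 with no filter, a pseudocount of 0.1, voom or the replicate block, with 0 to 1 when a sample was left out (0 without non-Dbx1 sample 3). The block changed no other call. Same-numbered samples came from different mice, and their deviations correlated at -0.107, 0.0248 and -0.0522, so the numbers were not taken as pairs. The number of Kv1 genes with an unadjusted p under 0.05 was 2, and it was 1 with RPKM of at least 1, no filter or voom and 1 to 2 when a sample was left out. Kcna3 kept a p between 0.000556 and 0.0291 in every fit, while Kcna5, at 0.0121 to 0.0590, lost it without any Dbx1 sample (0.0590, 0.0587 and 0.0589) and with no filter (0.0532), and was not tested with the stricter filter, under voom or without a non-Dbx1 sample. For Kcna4 the unadjusted value was 0.0442 without non-Dbx1 sample 1. Kcna1 changed sign, to 0.16, 0.15 and 0.16 without Dbx1 sample 1, Dbx1 sample 2 and non-Dbx1 sample 3, and to 0.17 as the ratio of means, within a range of -0.38 to 0.16 over the left-out samples. Kcnab3 changed to -0.076 without Dbx1 sample 1, within -0.076 to 1.20. The other 7 genes kept their sign wherever they were fitted. The Kv1 share of 24.1% became 44.0% against Kv4 alone, 35.5% against Kv2 and Kv3, and 28.6% with merged lengths (added after seeing the data), and it was 23.1% to 25.1% when a sample was left out. Of the 36 pairs of members, 28 to 34 kept their order under the 4 other orderings. Depth limits Kcna1, Kcna5 and the zeros of Kcna3, where 3 reads are worth up to 0.0585, 0.162 and 0.244 RPKM.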
